A study of Mus musculus with 24 samples.

Results

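Lymphocyte and neutrophil marker genes were followed through the livers of Smyd3 knockout and wild-type mice, with and without diethylnitrosamine (DEN). The set was listed by gene symbol, with earlier results of these data known. Its 37 symbols name 36 genes, because Igj is the older symbol of Jchain, out of 37583 genes in the deposited expression table. T cell genes make up 12 of them, 8 are genes of cytotoxic T cells and natural killer (NK) cells, 7 are B and plasma cell genes and 9 are neutrophil genes. A gene was tested when its value reached 10 in at least 3 of the 12 libraries. By that rule 23 of the 36 genes were tested, and 13 were too low to read.

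RNA was measured in whole liver of 8.5-month-old mice in 4 groups of 3 animals. DEN_KO livers came from Smyd3 knockout mice given a single intraperitoneal dose of 25 mg/kg DEN, and DEN_WT livers from wild-type mice given the same dose. KO and WT livers came from untreated knockout and wild-type mice. All carried the strain label C57BL6/CBA, the husbandry text names C57Bl6, and the diet was standard chow. DEN damages hepatocytes and serves as a model of late liver cancer. Smyd3 is a lysine methyltransferase, and its knockout allele comes from a gene-trap clone with the cassette in the 5th intron, so exons before it can still be transcribed. Whether tumour or surrounding tissue was sampled is not given in the labels. Chromatin precipitated for trimethylated histone H3 lysine 4 (H3K4me3, a mark of active gene starts) from DEN_KO and DEN_WT livers, and for Smyd3 from DEN_WT livers, was used as well, with 2 replicates behind each list of regions.

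T lymphocytes recognise antigen through a receptor whose signal passes from the CD3 chains to the kinases Lck and Zap70. Cytotoxic T cells and NK cells kill with perforin and granzymes. B cells signal through the Cd79a and Cd79b chains, and the plasma cells they give rise to secrete immunoglobulin, joined into polymers by the J chain. Neutrophils carry granule proteins such as lactoferrin and cathelicidin, and follow chemokines through Cxcr2. In the liver these cells are few beside hepatocytes. Most genes of the set read at low levels in these whole-liver libraries, and the reason was not tested.

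Sums of the deposited values ran from 22320634 to 28973396 per library, and the chromatin lists held 17491 (H3K4me3, DEN_KO), 15579 (H3K4me3, DEN_WT) and 27324 (Smyd3, DEN_WT) regions. Smyd3 itself read 3 to 12 in DEN_KO and 57 to 74 in DEN_WT livers, and 17 to 29 in KO against 59 to 89 in WT livers, so the genotypes did not overlap. DEN_WT replicate 2 stood apart: it was the lowest DEN_WT library for 16 of the 23 tested genes and for 12 of the 12 macrophage markers, whose sum was 3263 in it and 12118 and 7693 in DEN_WT replicates 1 and 3. The macrophage sum was 9324 to 12870 in DEN_KO, 6503 to 7540 in KO and 5614 to 5793 in WT livers. Its genes did not move together. In the test described below, 1 of the 12 was higher and 2 were lower in DEN_KO than in DEN_WT livers (25%, against 33.9% of all tested genes). The higher one, Clec4f, averaged 3744 in DEN_KO and 1892 in DEN_WT livers. The lower ones, Gpnmb and Trem2, averaged 16 and 13.3 in DEN_KO against 326 and 76.3 in DEN_WT livers. Over the 12 genes the median log2 fold change was 0.643, where that of all tested genes was -0.0552. Calls that depend on DEN_WT replicate 2 are given with and without it for genes with values in every library. For Clec4f, Gpnmb and Trem2 this is not given. In whole liver, fewer cells of a type and less RNA per cell cannot be told apart.

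H3K4me3 at gene starts separated a single gene from the other 35. An H3K4me3 region lay within 1 kb of the start of 1 of the 36 genes, Sdc1, in the DEN_KO list and also in the DEN_WT list, against 53.4% (DEN_KO list) and 52.3% (DEN_WT list) of 22369 protein-coding genes. A Smyd3 peak lay within 1 kb of the start of 1 of the 36 genes, again Sdc1, against 51.9% of protein-coding genes. Among protein-coding genes that were too low to test, the share with an H3K4me3 region at the start was 8.27% (DEN_KO list) and 8.56% (DEN_WT list), and among those tested it was 80.5% and 78.5%. These counts have no replicate check, since each list stands for its whole group.

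Sdc1 encodes syndecan-1, a surface proteoglycan that marks plasma cells and is also made by hepatocytes and other epithelial cells. On mouse build mm9 its H3K4me3 region spanned chr12:8777622-8781001 in the DEN_KO list and chr12:8777696-8780603 in the DEN_WT list, and its Smyd3 peak chr12:8777792-8780100. All 3 cover the annotated start of the gene, which runs from 8778129 to 8800521 on the plus strand. The promoters of Sdc1, Zap70, Jchain and Cxcr2, genes on which the results turn, are shown because they differ in CG dinucleotides, in which the start sites of widely expressed genes are often rich. RefSeq sequences on build GRCm38.p6, 250 bases before to 50 bases after a start, were at hand for 26 of the 36 genes. Each is written 5′ to 3′ along the gene, with every CG in capitals.
Sdc1: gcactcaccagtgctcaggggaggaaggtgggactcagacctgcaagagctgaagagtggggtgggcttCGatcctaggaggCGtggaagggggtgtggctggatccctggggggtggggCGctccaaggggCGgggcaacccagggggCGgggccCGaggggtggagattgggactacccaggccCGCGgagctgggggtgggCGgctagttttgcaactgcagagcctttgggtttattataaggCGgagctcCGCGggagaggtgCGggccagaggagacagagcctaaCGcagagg
Zap70, start 1: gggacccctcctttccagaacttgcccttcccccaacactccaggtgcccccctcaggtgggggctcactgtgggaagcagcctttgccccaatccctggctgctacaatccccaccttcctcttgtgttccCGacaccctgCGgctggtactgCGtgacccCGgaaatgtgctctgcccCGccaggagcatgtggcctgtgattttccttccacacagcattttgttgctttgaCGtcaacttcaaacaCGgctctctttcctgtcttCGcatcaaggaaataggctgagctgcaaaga
Zap70, start 3: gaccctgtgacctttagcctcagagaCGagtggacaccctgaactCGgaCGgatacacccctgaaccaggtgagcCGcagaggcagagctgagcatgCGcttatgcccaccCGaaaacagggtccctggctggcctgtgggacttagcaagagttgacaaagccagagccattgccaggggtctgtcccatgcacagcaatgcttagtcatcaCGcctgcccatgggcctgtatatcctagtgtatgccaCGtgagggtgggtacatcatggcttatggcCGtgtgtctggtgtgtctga
Jchain: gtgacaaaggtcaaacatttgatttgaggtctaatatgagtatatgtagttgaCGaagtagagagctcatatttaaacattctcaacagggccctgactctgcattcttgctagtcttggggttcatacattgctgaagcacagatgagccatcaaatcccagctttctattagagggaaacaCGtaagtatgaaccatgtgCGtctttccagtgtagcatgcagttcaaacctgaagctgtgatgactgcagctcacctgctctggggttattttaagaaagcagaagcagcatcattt
Cxcr2: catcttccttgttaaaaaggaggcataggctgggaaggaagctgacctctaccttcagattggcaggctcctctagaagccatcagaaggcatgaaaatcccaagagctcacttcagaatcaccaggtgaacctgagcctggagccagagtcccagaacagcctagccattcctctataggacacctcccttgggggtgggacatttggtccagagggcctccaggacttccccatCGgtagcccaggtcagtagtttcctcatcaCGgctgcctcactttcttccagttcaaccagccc
The Sdc1 window is chr12:8771146-8771445 (plus strand), the Zap70 windows are chr1:36761548-36761847 and chr1:36778734-36779033 (plus strand), the Jchain window is chr5:88527848-88528147 (minus strand) and the Cxcr2 window is chr1:74153744-74154043 (plus strand). Sdc1 held 14 CG, against 0 to 8 (median 3) at the first start of the other 25 genes. Over the 27025 genes of the promoter table the median was 7, 94.2% held at least 1 CG, and 36.9% held 14 or more. CG reads the same on both strands, and the count is a description of these windows only.

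Within gene bodies, 3 of the 36 genes held an H3K4me3 region with no annotated start within 1 kb of it, in each list. The share over protein-coding genes was 9.52% (DEN_KO list) and 8.15% (DEN_WT list), so the count is near the background. All 3 are T cell genes: Zap70, Lck and Cd4. In Zap70 the region was chr1:36837911-36839451 in the DEN_KO list and chr1:36837567-36839835 in the DEN_WT list (mm9), 19216 and 18872 bases past the start of a gene 20969 bases long. RefSeq lists 3 starts for Zap70 on GRCm38.p6, number 3 lying 17186 bases after the first; the builds differ, so the region was not placed against that start. A Smyd3 peak in Zap70, chr1:36827573-36828176, began 8878 bases past the start. Lck held an H3K4me3 region beginning 16473 (DEN_KO list) and 16548 bases (DEN_WT list) past its start, and RefSeq lists its second start 15269 bases after the first. Cd4 held one 5633 and 5355 bases past its start, together with a Smyd3 peak at 5828 bases. Prf1 held no H3K4me3 region but a Smyd3 peak 2100 bases past its start, and Sdc1 held a second Smyd3 peak at chr12:8784732-8785315, 6603 bases past its start. Such Smyd3 peaks lay in 4 of the 36 genes, against 19.2% of protein-coding genes. For the 35 genes other than Sdc1, the nearest H3K4me3 region outside or inside the gene lay at a median of 31640 bases in the DEN_KO list and 41205 bases in the DEN_WT list.

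**Figure D1:**
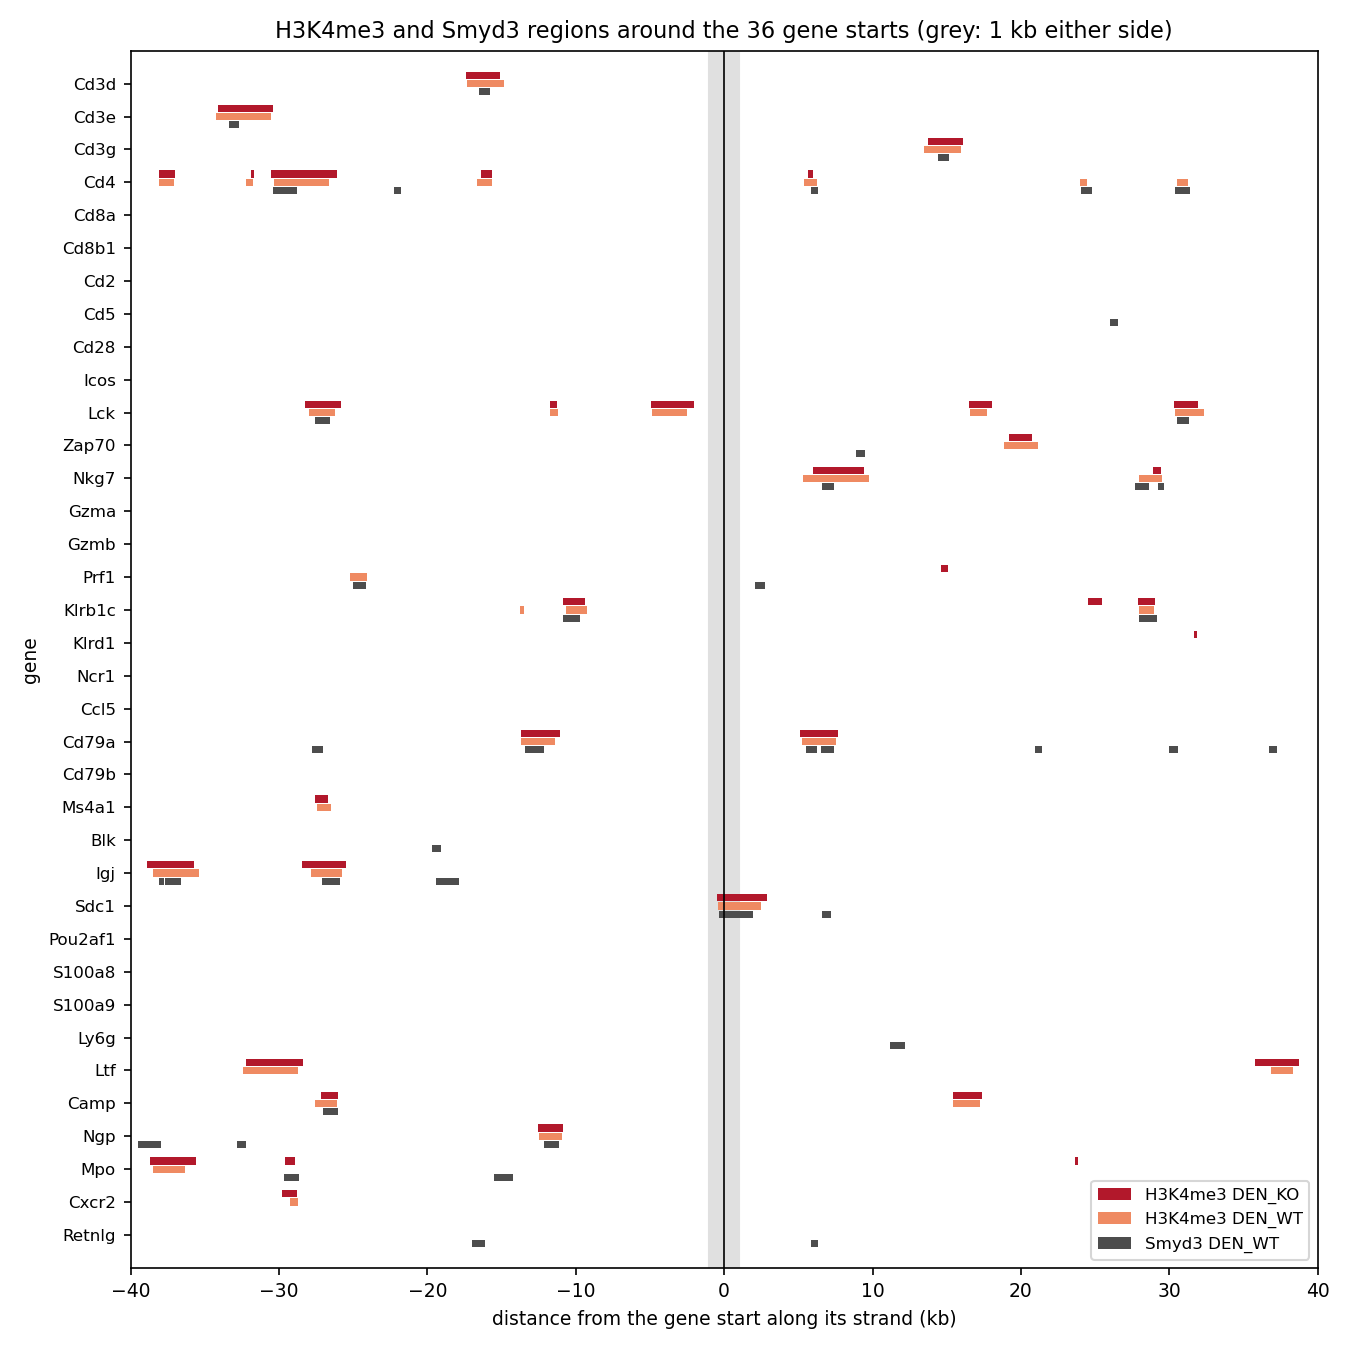
Deposited H3K4me3 (DEN_KO and DEN_WT lists) and Smyd3 (DEN_WT list) regions within 40 kb of the start of each of the 36 genes; the horizontal axis is the distance from the start along the gene's strand in kb, and each bar is 1 region. Sdc1 is the single gene with bars inside the grey band of 1 kb on either side of the start.

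The readable genes moved in different directions, and few of them passed the test. Values are the authors' normalized read counts, and differences are log2 fold changes of (value + 1) from a limma fit over all 16471 tested genes, with Benjamini-Hochberg adjustment and a threshold of 0.05; they understate changes of low genes. In DEN_WT against WT livers 6 of the 23 genes passed, 5 higher and 1 lower, against 29.6% of all tested genes. In DEN_KO against KO livers 3 passed, all higher, against 14.9%. In DEN_KO against DEN_WT livers 2 passed, both higher, against 33.9%. In KO against WT livers limma called none, against 1.16% of all tested genes, with 6 of the 23 at an unadjusted p under 0.05, as were 2492 of the 16471 tested genes; no other tool was run. For the difference between the DEN effects in the 2 genotypes 1 gene passed, against 16.6%. The members' share is near or under the background in each comparison. The comparisons share libraries with one another, so their values are set side by side and not counted together. The median log2 fold change over the 23 genes was 0.63 in DEN_WT against WT, where that of all tested genes was -0.018, and 0.58 in DEN_KO against KO, where it was 0.024; a gene at low level enters the test through the group in which it is high, so these medians are a description.

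**Figure D2:**
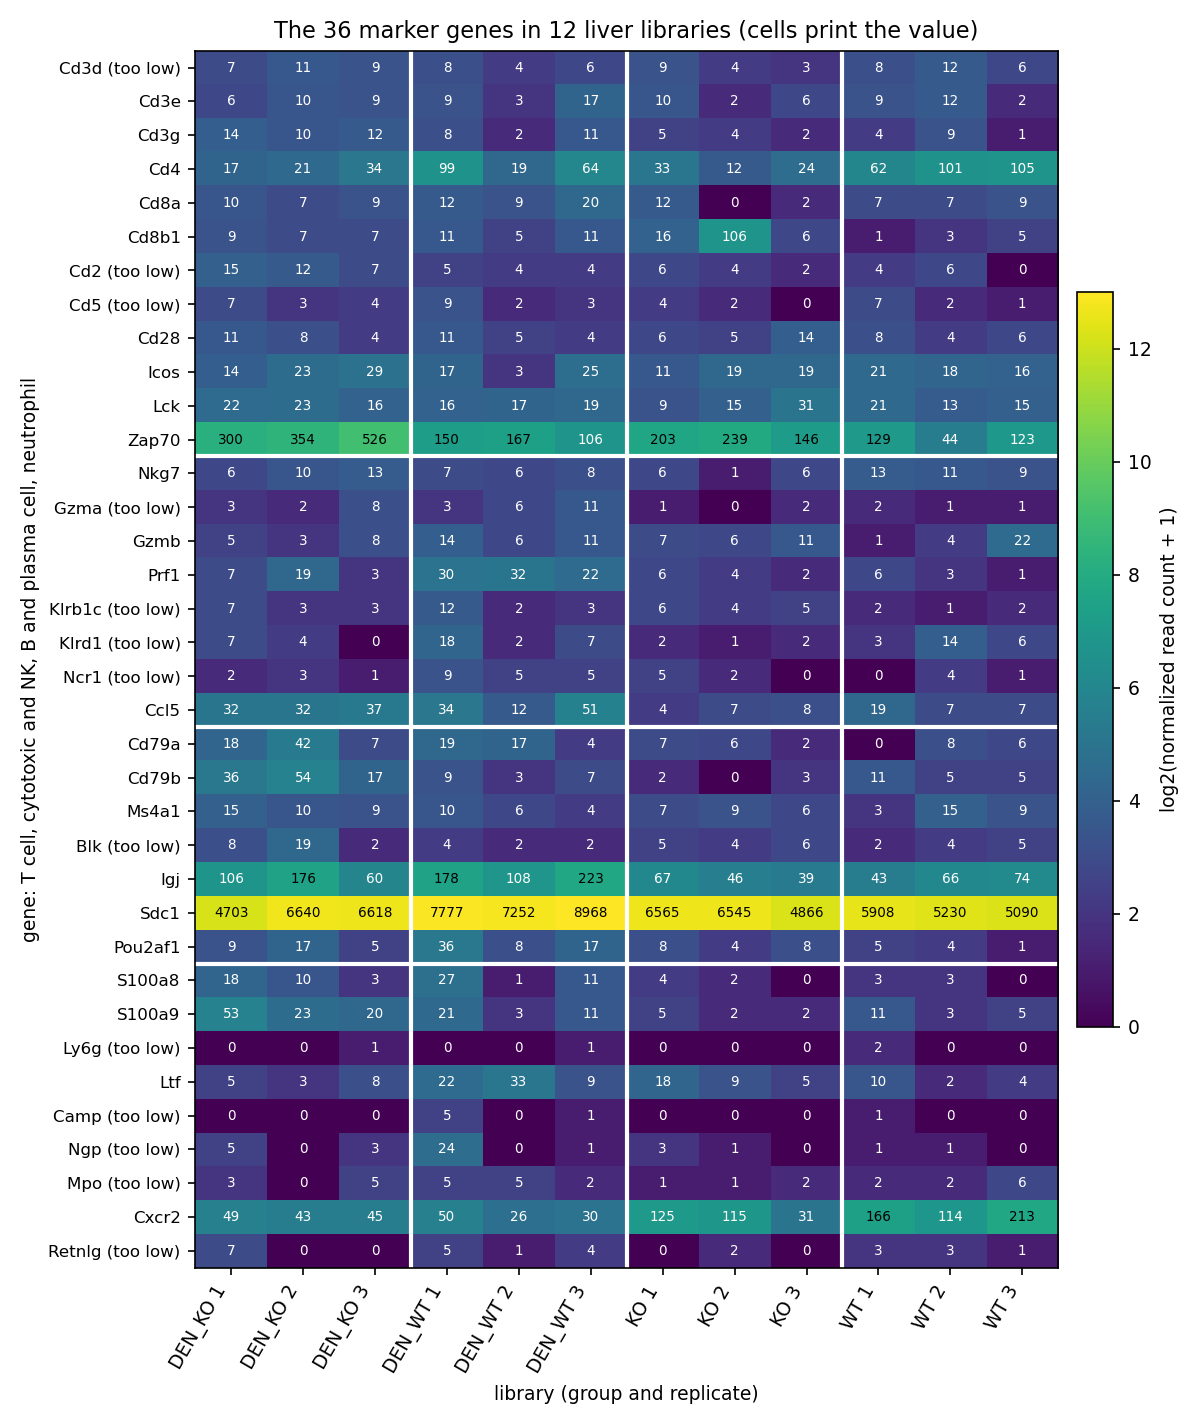
Normalized read counts of the 36 genes (rows) in 12 libraries (columns, DEN_KO, DEN_WT, KO and WT from left to right); the colour is log2(value + 1) and each cell prints the value. Most rows stay under 25 in every library, and values over 100 are found in Sdc1, Zap70, Cxcr2, Igj, Cd4 and, in KO replicate 2, Cd8b1.

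Among the T cell genes, Zap70 was the single gene past the threshold. It read 300, 354 and 526 in DEN_KO, 150, 167 and 106 in DEN_WT, 203, 239 and 146 in KO, and 129, 44 and 123 in WT livers. Every DEN_KO library was above every library of the other groups. The difference between DEN_KO and DEN_WT livers was 1.46 ± 0.37 (SE) on the log2 scale, with an adjusted p of 0.00931 by limma. Group means were 393 ± 118 in DEN_KO and 141 ± 31.5 in DEN_WT livers (SD, n = 3 each). Without DEN the same genotype difference was 1.10 ± 0.37 (adjusted p = 0.189 by limma), with means of 196 ± 46.9 in KO and 98.7 ± 47.4 in WT livers (SD, n = 3 each). The difference between the 2 DEN effects was 0.35 ± 0.53, adjusted p = 0.686 by limma, so a change of the genotype difference with DEN was not shown. The DEN_KO against DEN_WT call for Zap70 held without each library in turn.

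No other gene of the T cell receptor apparatus passed between DEN_KO and DEN_WT livers; whether they differed from Zap70 was not tested. Cd3e ran from 2 to 17 and Cd3g from 1 to 14 over the 12 libraries, and Cd3d, the remaining CD3 chain of the set, was too low to read at 3 to 12. Lck, the kinase that acts before Zap70, ran from 9 to 31 and had a mean of 20.3 ± 3.79 in DEN_KO and 17.3 ± 1.53 in DEN_WT livers (SD, n = 3 each), a log2 fold change of 0.21 ± 0.42. Cd3g was at 0.91 ± 0.67 in the same comparison (adjusted p = 0.313 by limma), with means of 12 ± 2 in DEN_KO and 7 ± 4.58 in DEN_WT livers (SD, n = 3 each), and Cd3e at 0.03 ± 0.71. The costimulatory receptors Cd28 (4 to 14) and Icos (3 to 29) passed in no comparison. Without Zap70, the summed values of the other 11 T cell genes were 132 to 140 in DEN_KO, 73 to 205 in DEN_WT, 109 to 173 in KO and 152 to 187 in WT livers, ranges that overlap between DEN_KO and DEN_WT. With Zap70 the sums were 432 to 666 in DEN_KO and 240 to 355 in DEN_WT livers.

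Cd4, the coreceptor of helper T cells, read 17, 21 and 34 in DEN_KO, 99, 19 and 64 in DEN_WT, 33, 12 and 24 in KO, and 62, 101 and 105 in WT livers. All 3 KO libraries were under all 3 WT libraries. That difference was -1.98 ± 0.54, with an adjusted p of 0.101 by limma, and did not pass. DEN_KO and DEN_WT livers overlapped through DEN_WT replicate 2; without that library the log2 fold change was -1.75, with an adjusted p of 0.0156 by limma, and with it -1.08 ± 0.54 (adjusted p = 0.139 by limma).

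The coreceptor chains of cytotoxic T cells, Cd8a and Cd8b1, did not move together. Cd8b1, named after its values were seen, read 106 in KO replicate 2 and 1 to 16 in the other 11 libraries, whereas Cd8a read 0 in KO replicate 2 and 2 to 20 elsewhere. Leaving out KO replicate 3 brought Cd8b1 past the threshold in KO against WT livers, at a log2 fold change of 3.55 (adjusted p = 0.0267 by limma), against 2.68 ± 0.80 with all libraries (adjusted p = 0.132 by limma). Without KO replicate 1, Cd8a passed in DEN_KO against KO livers at 2.47 (adjusted p = 0.0286 by limma), against 1.499 ± 0.73 with all libraries. Cd2 and Cd5, surface receptors of T cells, were too low to read. Cd2, printed in full after its values were seen, read 15, 12 and 7 in DEN_KO, 5, 4 and 4 in DEN_WT, 6, 4 and 2 in KO, and 4, 6 and 0 in WT livers. It was not tested, and no group order is read from it. Cd5 ran up to 9.

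Further T and NK cell genes, listed with earlier results of these data known, were tested for 17 of 27. Those called were 2 higher in DEN_WT than in WT (11.8%, against 29.6% of all tested genes), 2 higher in DEN_KO than in KO (11.8%, against 14.9%), and 1 lower in DEN_KO than in DEN_WT livers (5.88%, against 33.9%). Tcf7, a transcription factor of early T cells that is also a Wnt pathway target, read 87, 108 and 72 in DEN_KO, 157, 249 and 203 in DEN_WT, 93, 74 and 92 in KO, and 77, 79 and 66 in WT livers. It stood apart in DEN_WT, where every library was above all others. Tcf7 was lower in DEN_KO than in DEN_WT livers by a log2 fold change of -1.17 ± 0.24 (adjusted p = 0.00245 by limma), the opposite direction to Zap70, and higher in DEN_WT than in WT livers by 1.42 ± 0.24 (adjusted p = 0.00069 by limma). Coro1a, an actin regulator of leukocytes, read 170, 223 and 188 in DEN_KO, 255, 110 and 227 in DEN_WT, 76, 99 and 58 in KO, and 93, 87 and 82 in WT livers. It rose in DEN_KO against KO livers by 1.33 ± 0.30 (adjusted p = 0.0123 by limma) and in DEN_WT against WT livers by 1.08 ± 0.30 (adjusted p = 0.0156 by limma). Cd52, a surface glycoprotein of lymphocytes and other leukocytes, rose in DEN_KO against KO livers by 1.53 ± 0.40 (adjusted p = 0.0223 by limma), reading 68, 91 and 63 in DEN_KO, 59, 19 and 37 in DEN_WT, 18, 26 and 32 in KO, and 19, 31 and 23 in WT livers. Coro1a and Cd52 lost their calls without single libraries. The adjusted p of Coro1a by limma became 0.0531 without DEN_KO replicate 2, and 0.0694 and 0.0668 without DEN_WT replicates 1 and 3. That of Cd52 became 0.0503, 0.0902 and 0.0844 without DEN_KO replicate 1, DEN_KO replicate 2 and KO replicate 1.

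Among genes of cytotoxic and NK cells, Prf1 and Ccl5 were higher under DEN, each past the threshold in 1 genotype. Prf1, which encodes perforin, read 7, 19 and 3 in DEN_KO, 30, 32 and 22 in DEN_WT, 6, 4 and 2 in KO, and 6, 3 and 1 in WT livers. All 3 DEN_WT libraries were above the other 9. The DEN_WT against WT difference was 2.90 ± 0.64, with an adjusted p of 0.00409 by limma, and it held without each library in turn. Prf1 reached 10 only in the 3 DEN_WT libraries and DEN_KO replicate 2, and so entered the test through the group where it was high. In DEN_KO against DEN_WT livers Prf1 was at -1.73 ± 0.64 (adjusted p = 0.051 by limma), just outside the threshold, and it passed without DEN_KO replicate 2 at -2.34 (adjusted p = 0.0185 by limma). Its DEN effects in KO and in WT differed by -2.04 ± 0.90, adjusted p = 0.139 by limma, and so were not shown to differ.

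Ccl5, a chemokine that activated T and NK cells release, read 32, 32 and 37 in DEN_KO, 34, 12 and 51 in DEN_WT, 4, 7 and 8 in KO, and 19, 7 and 7 in WT livers. DEN_KO and KO livers did not overlap, while DEN_WT and WT livers overlapped through DEN_WT replicate 2 and WT replicate 1. The DEN_KO against KO difference was 2.28 ± 0.53 (adjusted p = 0.0139 by limma), and 2.03 with an adjusted p of 0.0543 by limma without KO replicate 1. In DEN_WT against WT livers the difference was 1.40 ± 0.53 (adjusted p = 0.0611 by limma). It passed without DEN_WT replicate 2, at 1.97 with an adjusted p of 0.0122, and without WT replicate 1, at 1.84 with an adjusted p of 0.026, both by limma. Ccl5 was at 0.27 ± 0.53 between DEN_KO and DEN_WT livers (adjusted p = 0.728 by limma), and the DEN effects in KO and WT differed by 0.88 ± 0.75 (adjusted p = 0.453 by limma).

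The remaining 6 genes of this group gave no call. Nkg7, a granule membrane protein, ran from 1 to 13 and Gzmb, granzyme B, from 1 to 22. Granzyme A (Gzma, up to 11) and the NK receptors Klrb1c (up to 12), Klrd1 (up to 18) and Ncr1 (up to 9) were too low to read. Summed over the 8 genes, DEN_KO livers read 69 to 76 and DEN_WT livers 71 to 127, against 25 to 37 in KO and 45 to 49 in WT livers. The sums in DEN-treated livers were above those in untreated livers in both genotypes, and a sum over chosen genes has no test here.

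Among the B cell receptor genes Cd79b was highest in DEN-treated knockouts, and 3 genes linked to plasma cells, Igj, Pou2af1 and Sdc1, passed in DEN_WT against WT livers. Cd79b, a signalling chain of the B cell receptor, read 36, 54 and 17 in DEN_KO, 9, 3 and 7 in DEN_WT, 2, 0 and 3 in KO, and 11, 5 and 5 in WT livers. Every DEN_KO library was above every other library. Cd79b reached 10 only in the DEN_KO libraries and WT replicate 1, and so entered the test through the group where it was high. Cd79b was higher in DEN_KO than in KO livers by 3.86 ± 0.64 (adjusted p = 0.0025 by limma) and higher in DEN_KO than in DEN_WT livers by 2.28 ± 0.64 (adjusted p = 0.0146 by limma). In DEN_WT against WT livers it was at -0.14 ± 0.64, and the DEN effects of the 2 genotypes differed by 4.003 ± 0.90 (adjusted p = 0.0112 by limma). The size rests on values near 0: with 5 added to each value in place of 1, the DEN_KO against KO difference was 2.52 and the difference between the DEN effects 2.61. Between DEN_KO and DEN_WT livers the call was lost without DEN_KO replicate 2, at 1.92 with an adjusted p of 0.0669, and without DEN_WT replicate 2, at 1.89 with an adjusted p of 0.0654, both by limma.

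The partner chain Cd79a ran from 0 to 42 over all libraries, with a mean of 22.3 ± 17.9 in DEN_KO, 13.3 ± 8.15 in DEN_WT, 5.00 ± 2.65 in KO and 4.67 ± 4.16 in WT livers (SD, n = 3 each), and passed in no comparison. Ms4a1, the B cell surface protein CD20, ran from 3 to 15, and a long noncoding RNA gene overlaps it. Blk, a kinase of B cells, was too low to read; its highest value, 19, was in DEN_KO replicate 2, the library that also held the highest values of Cd79a and Cd79b.

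Igj, the J chain of secreted antibodies, read 106, 176 and 60 in DEN_KO, 178, 108 and 223 in DEN_WT, 67, 46 and 39 in KO, and 43, 66 and 74 in WT livers. DEN_WT and WT livers did not overlap; DEN_KO and KO livers overlapped through DEN_KO replicate 3 and KO replicate 1. The DEN_WT against WT difference was 1.44 ± 0.39 (adjusted p = 0.0143 by limma), and it was lost without DEN_WT replicate 3 (1.21, adjusted p = 0.0654 by limma) or WT replicate 1 (1.21, adjusted p = 0.0563 by limma). In DEN_KO against KO livers it was 1.06 ± 0.39 (adjusted p = 0.0858 by limma), and it passed without DEN_KO replicate 3, at 1.45 (adjusted p = 0.0397 by limma). The DEN effects in KO and WT differed by -0.38 ± 0.56 (adjusted p = 0.683 by limma).

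Pou2af1, a coactivator of immunoglobulin genes in B cells, read 9, 17 and 5 in DEN_KO, 36, 8 and 17 in DEN_WT, 8, 4 and 8 in KO, and 5, 4 and 1 in WT livers. DEN_WT livers were above WT livers in every library, by 2.21 ± 0.64 (adjusted p = 0.0182 by limma), and the call was lost without WT replicate 3, at 1.73 with an adjusted p of 0.0745 by limma. Pou2af1 reached 10 in only 3 libraries, DEN_KO replicate 2 and DEN_WT replicates 1 and 3, so without either of these DEN_WT libraries it was not tested. Its DEN effects in KO and WT differed by -1.74 ± 0.90 (adjusted p = 0.2 by limma). Sdc1, the gene with H3K4me3 at its start, read 4703, 6640 and 6618 in DEN_KO, 7777, 7252 and 8968 in DEN_WT, 6565, 6545 and 4866 in KO, and 5908, 5230 and 5090 in WT livers. Its DEN_WT libraries were above the other 9. The DEN_WT against WT difference was small, 0.56 ± 0.19 (adjusted p = 0.0359 by limma), with 7 of 16 other settings short of the threshold, among them the fits without DEN_WT replicate 1 (adjusted p = 0.067), DEN_WT replicate 3 (0.127), WT replicate 2 (0.0942) and WT replicate 3 (0.0974). After quantile normalization it was 1.01. In DEN_KO against KO livers Sdc1 was at -0.01 ± 0.19 (adjusted p = 0.987 by limma), and the 2 DEN effects differed by -0.57 ± 0.26 (adjusted p = 0.155 by limma).

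The immunoglobulin heavy chain genes Ighg2c and Ighg2b rose with DEN in both genotypes. Of the 18 further B and plasma cell genes tested, 5 were higher in DEN_WT than in WT (27.8%, against 29.6% of all tested genes) and 7 were higher in DEN_KO than in KO livers (38.9%, against 14.9%), none lower in either. Among those 7, Ighg2b, Ighg2c, Ighg3 and Iglc2 averaged 3, 4.3, 3.7 and 2.7 in KO livers. A gene that low enters the test through the group in which it is high. The list was also drawn up with earlier results known, so these shares are a description. Between DEN_KO and DEN_WT livers 1 was higher (Ighm, the heavy chain of IgM) and 3 were lower (Cr2, Ltb and Prdm1), together 22.2% against 33.9%. Ighm, named after its values were seen, was at 1.36 ± 0.44 (adjusted p = 0.0299 by limma). It was lost without DEN_WT replicate 2, at 0.80 (adjusted p = 0.134), without DEN_KO replicate 2, at 1.07 (0.115), and without DEN_KO replicate 3, at 1.36 (0.0724), as well as without the trend (0.054) and with only these groups in the fit (0.0586). Ighg2c read 12, 74 and 19 in DEN_KO, 53, 29 and 44 in DEN_WT, 8, 2 and 3 in KO, and 3, 4 and 6 in WT livers. The DEN effect was 2.499 ± 0.62 in KO (adjusted p = 0.0187 by limma) and 3.01 ± 0.62 in WT (adjusted p = 0.00273 by limma). Ighg2b read 10, 28 and 14 in DEN_KO, 66, 33 and 26 in DEN_WT, 5, 2 and 2 in KO, and 9, 2 and 6 in WT livers. It gave 2.16 ± 0.58 in KO (adjusted p = 0.0249 by limma) and 2.73 ± 0.58 in WT (adjusted p = 0.00312 by limma), and the KO value was 1.42 with 5 added to each value. Ighg2c and Ighg2b reached 10 only in DEN-treated livers, and so entered the test through the groups where they were high. Reads of immunoglobulin subclasses can be shared between their near-identical constant regions, so the split between them is uncertain. The calls in KO were lost without DEN_KO replicate 2 (adjusted p = 0.0821 for Ighg2c and 0.111 for Ighg2b by limma), and without KO replicate 2 (0.0624 and 0.0703); Ighg2b was lost without DEN_KO replicate 3 (0.0602) and KO replicate 3 (0.0609) as well.

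Ltb, lymphotoxin beta, a membrane cytokine of lymphocytes, read 64, 64 and 61 in DEN_KO, 205, 166 and 804 in DEN_WT, 22, 31 and 16 in KO, and 23, 26 and 22 in WT livers. The DEN_KO against DEN_WT difference of Ltb was -2.24 ± 0.47 (adjusted p = 0.00289 by limma), and the DEN_WT against WT difference 3.62 ± 0.47 (adjusted p = 0.000113 by limma). Prdm1, the plasma cell transcription factor Blimp-1, which other cell types also express, read 18, 17 and 23 in DEN_KO, 41, 42 and 53 in DEN_WT, 15, 14 and 19 in KO, and 10, 12 and 20 in WT livers. Prdm1 fell in the same direction, at -1.19 ± 0.34 (adjusted p = 0.0169 by limma), and this call was lost without DEN_KO replicate 1 (0.0509), DEN_KO replicate 2 (0.0551) or DEN_WT replicate 3 (0.0664). Cd79b, and Ltb with Prdm1, thus differed between the DEN-treated genotypes in opposite directions.

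**Figure D3:**
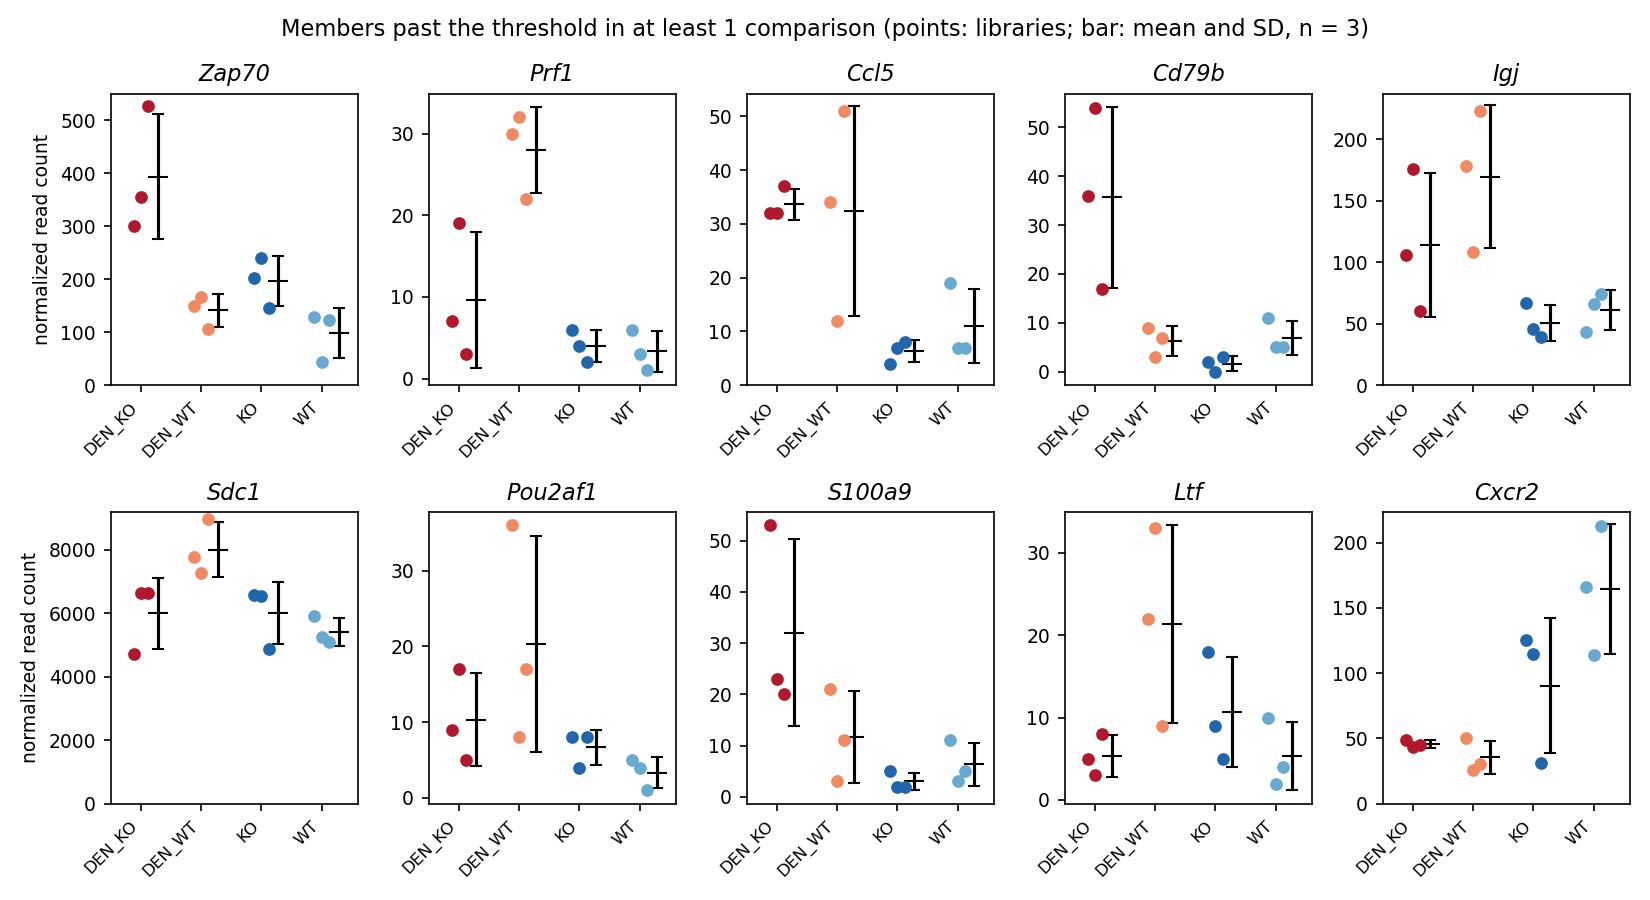
Normalized read counts of the 10 genes of the set that passed the threshold in at least 1 comparison, by group (DEN_KO, DEN_WT, KO, WT); points are libraries, the black bar is the mean with the SD over 3 animals, and each panel has its own axis. Zap70 and Cd79b have their 3 highest points in DEN_KO, Prf1 and Sdc1 have theirs in DEN_WT, and Cxcr2 is lowest in DEN_WT and DEN_KO livers together with 1 KO library.

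Most neutrophil genes were at the lower limit of these libraries. Ly6g, the surface marker that defines mouse neutrophils, read 0 to 2, with 0 in 9 of 12 libraries, and the granule protein Camp read 0 to 5, with 0 in 9 libraries. Mpo (0 to 6), Retnlg (0 to 7) and Ngp were too low to read; Ngp reached 24 in DEN_WT replicate 1 and 0 to 5 elsewhere. An antisense gene overlaps Mpo. A total of 3 of the 9 genes passed in a comparison, Cxcr2, S100a9 and Ltf, while the defining markers were at or near 0.

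Cxcr2, the chemokine receptor, read 49, 43 and 45 in DEN_KO, 50, 26 and 30 in DEN_WT, 125, 115 and 31 in KO, and 166, 114 and 213 in WT livers. DEN_WT livers were under WT livers in every library, by a log2 fold change of -2.20 ± 0.46 (adjusted p = 0.00281 by limma), and this call held without each library in turn. Means were 35.3 ± 12.9 in DEN_WT and 164 ± 49.5 in WT livers (SD, n = 3 each). In DEN_KO against KO livers the difference was -0.74 ± 0.46 (adjusted p = 0.298 by limma), with KO replicate 3 at 31 below the DEN_KO range. Without KO replicate 3 it was -1.38, with an adjusted p of 0.0187 by limma. The 2 DEN effects differed by 1.46 ± 0.64 (adjusted p = 0.137 by limma). The other 8 neutrophil genes summed to 36 to 91 in DEN_KO and 40 to 109 in DEN_WT, against 9 to 31 in KO and 14 to 33 in WT livers, and so did not follow Cxcr2.

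S100a9, a calcium-binding protein of neutrophils and monocytes, read 53, 23 and 20 in DEN_KO, 21, 3 and 11 in DEN_WT, 5, 2 and 2 in KO, and 11, 3 and 5 in WT livers. DEN_KO and KO livers did not overlap, and the difference was 2.99 ± 0.66 (adjusted p = 0.0113 by limma). DEN_WT and WT livers overlapped, at 0.62 ± 0.66, and the 2 DEN effects differed by 2.37 ± 0.94 (adjusted p = 0.1 by limma). Between DEN_KO and DEN_WT livers S100a9 was at 1.56 ± 0.66 (adjusted p = 0.085 by limma), and it passed without DEN_WT replicate 1, at 2.12 (adjusted p = 0.0352 by limma). Its partner S100a8 ran from 0 to 27 with no call, and passed in DEN_WT against WT livers without DEN_WT replicate 2, at 2.86 (adjusted p = 0.0415 by limma) against 1.80 ± 0.99 with all libraries.

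Ltf, lactoferrin, a granule protein of neutrophils that secretory epithelia also make, read 5, 3 and 8 in DEN_KO, 22, 33 and 9 in DEN_WT, 18, 9 and 5 in KO, and 10, 2 and 4 in WT livers. The DEN_WT against WT difference was 1.86 ± 0.64 (adjusted p = 0.0429 by limma), with an overlap between DEN_WT replicate 3 and WT replicate 1. It was lost without DEN_WT replicate 1 (adjusted p = 0.108), DEN_WT replicate 2 (0.159), WT replicate 2 (0.16) or WT replicate 3 (0.0969). Between DEN_KO and DEN_WT livers Ltf was at -1.73 ± 0.64 (adjusted p = 0.0521 by limma), and it passed without DEN_WT replicate 3, at -2.22 (adjusted p = 0.03 by limma). The DEN effects in KO and WT differed by -2.66 ± 0.91 (adjusted p = 0.0605 by limma), with adjusted p values of 0.0421, 0.0384 and 0.0375 without DEN_WT replicate 3, KO replicate 3 and WT replicate 1.

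Of 11 further neutrophil and myelocyte genes tested out of 23, 2 were higher in DEN_WT than in WT (18.2%, against 29.6% of all tested genes) and 2 were higher in DEN_KO than in KO livers (18.2%, against 14.9%). Between DEN_KO and DEN_WT livers 2 were higher and 2 lower (36.4%, against 33.9%), so these counts are near or under the background. The 2 lower ones encode granule proteins. Pglyrp1, a peptidoglycan-binding protein, read 9, 6 and 4 in DEN_KO, 36, 128 and 74 in DEN_WT, 0, 0 and 5 in KO, and 1, 5 and 0 in WT livers, and was lower in DEN_KO than in DEN_WT livers by -3.33 ± 0.81 on the log2 scale (adjusted p = 0.00714 by limma) and higher in DEN_WT than in WT livers by 4.95 ± 0.81 (adjusted p = 0.000602 by limma). Prtn3, proteinase 3, read 7, 14 and 17 in DEN_KO, 339, 20 and 200 in DEN_WT, 0, 1 and 10 in KO, and 1, 1 and 6 in WT livers, a difference of -3.13 ± 1.02 between DEN_KO and DEN_WT livers (adjusted p = 0.0304 by limma). That call was lost in 5 of the 6 fits without a library of these groups, with DEN_WT replicate 2 the exception, at adjusted p values by limma of 0.0957 (DEN_KO replicate 1), 0.0578 (DEN_KO replicate 2), 0.056 (DEN_KO replicate 3), 0.121 (DEN_WT replicate 1) and 0.105 (DEN_WT replicate 3). Pglyrp1 reached 10 in the 3 DEN_WT libraries alone, entered the test through them, and was not tested without any one of them. It was highest in the DEN_WT library in which Ly6g, Camp and Ngp read 0.

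The 2 that were higher in DEN_KO than in DEN_WT livers were Il1b, an inflammatory cytokine of myeloid cells, and Fpr1, a receptor for formylated bacterial peptides. Il1b read 87, 36 and 44 in DEN_KO, 27, 8 and 25 in DEN_WT, 11, 22 and 10 in KO, and 16, 12 and 12 in WT livers, with a DEN_KO against DEN_WT difference of 1.49 ± 0.50 (adjusted p = 0.0331 by limma). Fpr1 read 44, 65 and 80 in DEN_KO, 41, 10 and 24 in DEN_WT, 21, 44 and 27 in KO, and 24, 44 and 23 in WT livers, a DEN_KO against DEN_WT difference of 1.46 ± 0.48 (adjusted p = 0.0308 by limma). Both depended on DEN_WT replicate 2, the library low in macrophage markers: without it the differences were 0.97 for Il1b (adjusted p = 0.147 by limma) and 0.94 for Fpr1 (adjusted p = 0.137 by limma). Il1b was lost without DEN_KO replicate 1 (0.141) or DEN_KO replicate 3 (0.0621), and Fpr1 without DEN_KO replicate 2 (0.0756), DEN_KO replicate 3 (0.111) or DEN_WT replicate 3 (0.0579). Il1b was also higher in DEN_KO than in KO livers, at 1.86 ± 0.50 (adjusted p = 0.0247 by limma), lost without DEN_KO replicate 1 (0.0969), DEN_KO replicate 3 (0.0559), KO replicate 1 (0.0795) or KO replicate 3 (0.0665).

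**Figure D4:**
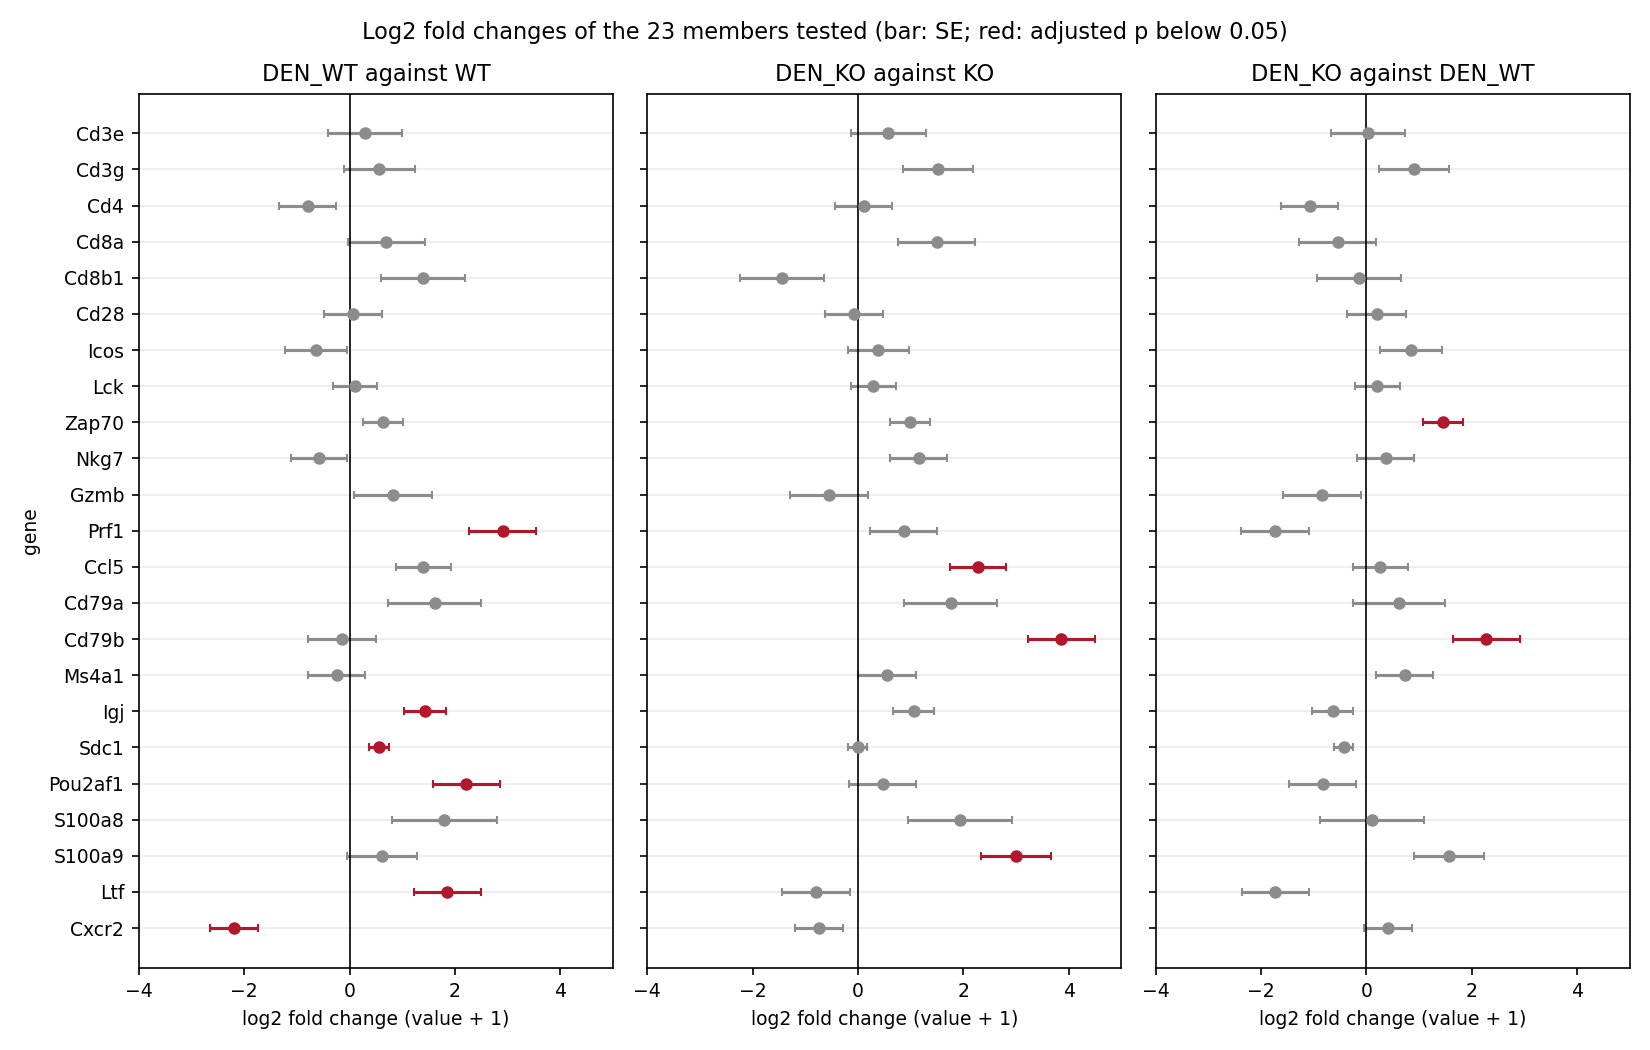
Log2 fold changes of (value + 1) for the 23 genes tested, in DEN_WT against WT, DEN_KO against KO and DEN_KO against DEN_WT livers; points are estimates, bars are standard errors, and red marks an adjusted p under 0.05. The red points are 6, 3 and 2 genes from left to right, and Cd79b is the single gene that is red in 2 panels.

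Signals that draw and sustain these cells were examined beside the markers. Of 16 chemokine, adhesion and survival factor genes tested out of 27, 10 passed in DEN_WT against WT livers, 9 of them higher, and 6 passed in DEN_KO against KO livers, all higher. Between DEN_KO and DEN_WT livers 8 passed, and all 8 were lower in DEN_KO. In KO against WT livers 1 passed, the neutrophil chemokine Cxcl1, named after its values were seen; it read 68, 16 and 63 in KO and 129, 215 and 191 in WT livers, a difference of -2.06 ± 0.42 (adjusted p = 0.0353 by limma) that was not called without WT replicate 2 (0.162) or WT replicate 3 (0.0795). Cxcl1 read 106, 116 and 147 in DEN_KO and 632, 572 and 747 in DEN_WT livers, well apart. The background shares given above for all tested genes, 29.6%, 14.9%, 33.9% and 1.16%, apply to these 4 counts in turn. This list was drawn up with earlier results of these data known, so its counts are a description.

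Tnfsf13 encodes APRIL, a survival factor of plasma cells. It read 24, 55 and 20 in DEN_KO, 140, 234 and 215 in DEN_WT, 5, 7 and 8 in KO, and 4, 4 and 6 in WT livers. No library of a DEN-treated group overlapped an untreated one, and DEN_WT was above DEN_KO throughout. The DEN effect was 2.03 ± 0.41 in KO (adjusted p = 0.0072 by limma) and 5.11 ± 0.41 in WT (adjusted p = 3.11e-06 by limma), and the effects differed by -3.08 ± 0.58 (adjusted p = 0.0047 by limma). Cxcl16, the ligand of the T and NK cell receptor Cxcr6, read 244, 250 and 209 in DEN_KO, 611, 449 and 804 in DEN_WT, 298, 280 and 315 in KO, and 259, 259 and 341 in WT livers. It was higher in DEN_WT livers than in any other group, and the 2 DEN effects differed by -1.43 ± 0.30 (adjusted p = 0.0075 by limma). Cxcr6 itself ran from 5 to 20.

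Icam1, the adhesion molecule that leukocytes bind, was lower in DEN_KO than in DEN_WT livers by -1.16 ± 0.24 on the log2 scale (adjusted p = 0.00286 by limma), at 358, 437 and 329 in DEN_KO, 840, 758 and 898 in DEN_WT, 205, 279 and 127 in KO, and 239, 245 and 205 in WT livers. Every DEN_WT library was above every DEN_KO library for Icam1. Il33, an alarmin that acts on lymphoid cells, read 55, 140 and 38 in DEN_KO, 177, 282 and 273 in DEN_WT, 16, 21 and 32 in KO, and 41, 24 and 15 in WT livers, a DEN_KO against DEN_WT difference of -1.83 ± 0.47 (adjusted p = 0.00952 by limma; 0.05 without DEN_KO replicate 3). In DEN_KO against KO livers these genes rose by 0.94 ± 0.24 (Icam1, adjusted p = 0.0212 by limma) and 1.55 ± 0.47 (Il33, adjusted p = 0.0425 by limma). Icam1 lost that call without DEN_KO replicate 2 (0.0872) or KO replicate 1 (0.0518), and Il33 without DEN_KO replicate 1 (0.0679), DEN_KO replicate 2 (0.176, with the difference at 1.02), KO replicate 1 (0.136) or KO replicate 2 (0.0961).

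Markers of other cell types were read in the same libraries. The summed level of 5 cholangiocyte markers was 1074 to 1801 in DEN_KO and 9721 to 16637 in DEN_WT, against 786 to 863 in KO and 902 to 1107 in WT livers. That sum is mostly Spp1, osteopontin, which macrophages also make and which averaged 1164 ± 332 in DEN_KO and 13060 ± 3483 in DEN_WT, against 440 ± 105 in KO and 731 ± 162 in WT livers (SD, n = 3 each). Krt19, Krt7, Epcam and Sox9, the other 4, passed in no comparison. The summed level of 6 stellate cell markers was 1638 to 2128 in DEN_KO and 3381 to 5874 in DEN_WT, against 1582 to 2104 in KO and 1828 to 2015 in WT livers. Of the 6, 3 were higher in DEN_WT than in WT (50%, against 29.6% of all tested genes). Between DEN_KO and DEN_WT livers 4 were lower in DEN_KO (66.7%, against 33.9%). Lrat and Des passed in no comparison, with means of 232.7 and 100.7 in DEN_WT and 248.3 and 101.3 in WT livers. Dendritic cell markers (8 genes) summed to 202 to 271 in DEN_KO and 330 to 488 in DEN_WT, against 187 to 236 in KO and 211 to 241 in WT livers, with 2 of 7 tested genes, Itgax and Cd209a, higher in DEN_WT than in WT and lower in DEN_KO than in DEN_WT livers (28.6% each, against 29.6% and 33.9% of all tested genes). In DEN_KO against KO livers 1 of 7, Itgax, was higher, at 2.06 ± 0.52 (adjusted p = 0.0193 by limma; 14.3%, against 14.9%). Pan-leukocyte markers (5 genes) summed to 856 to 1007 in DEN_KO and 681 to 1552 in DEN_WT, against 693 to 1003 in KO and 604 to 727 in WT livers. Of these 5, 2 were higher in DEN_WT than in WT livers (40%, against 29.6% of all tested genes) and none (against 33.9%) passed between DEN_KO and DEN_WT livers, where limma gave 1 of 5 at an unadjusted p under 0.05. Endothelial markers (6 genes) summed to 4933 to 5503 in DEN_KO and 5333 to 5502 in DEN_WT, against 3949 to 4313 in KO and 3726 to 4431 in WT livers. In DEN_WT against WT livers 4 of 6 were higher (66.7%, against 29.6% of all tested genes). Although the sums overlapped, 2 of 6 were lower in DEN_KO than in DEN_WT livers (33.3%, against 33.9%). Hepatocyte markers (8 genes) summed to 1825648 to 2692277 in DEN_KO and 3129659 to 4808048 in DEN_WT, against 1911545 to 3263108 in KO and 2208182 to 2447020 in WT livers. Alb makes up most of that sum, at means of 2667000 in DEN_WT and 1402000 in WT livers. It was not called in that comparison (adjusted p = 0.426 by limma). Of the 8 genes, 1 was higher and 1 lower in DEN_WT than in WT livers (25%, against 29.6% of all tested genes). Between DEN_KO and DEN_WT livers 3 were higher in DEN_KO and none lower (37.5%, against 33.9%). The erythroid and platelet sum (10 genes) was 16688 to 27281 in DEN_KO, 8839 in DEN_WT replicate 2, 18835 and 24466 in the other DEN_WT libraries, 16041 to 17672 in KO and 14330 to 24674 in WT livers. Mast cell and basophil markers were too low to test, with a sum of 0 to 21. The part of these cells in the results for the lymphocyte and neutrophil genes was not tested.

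**Figure D5:**
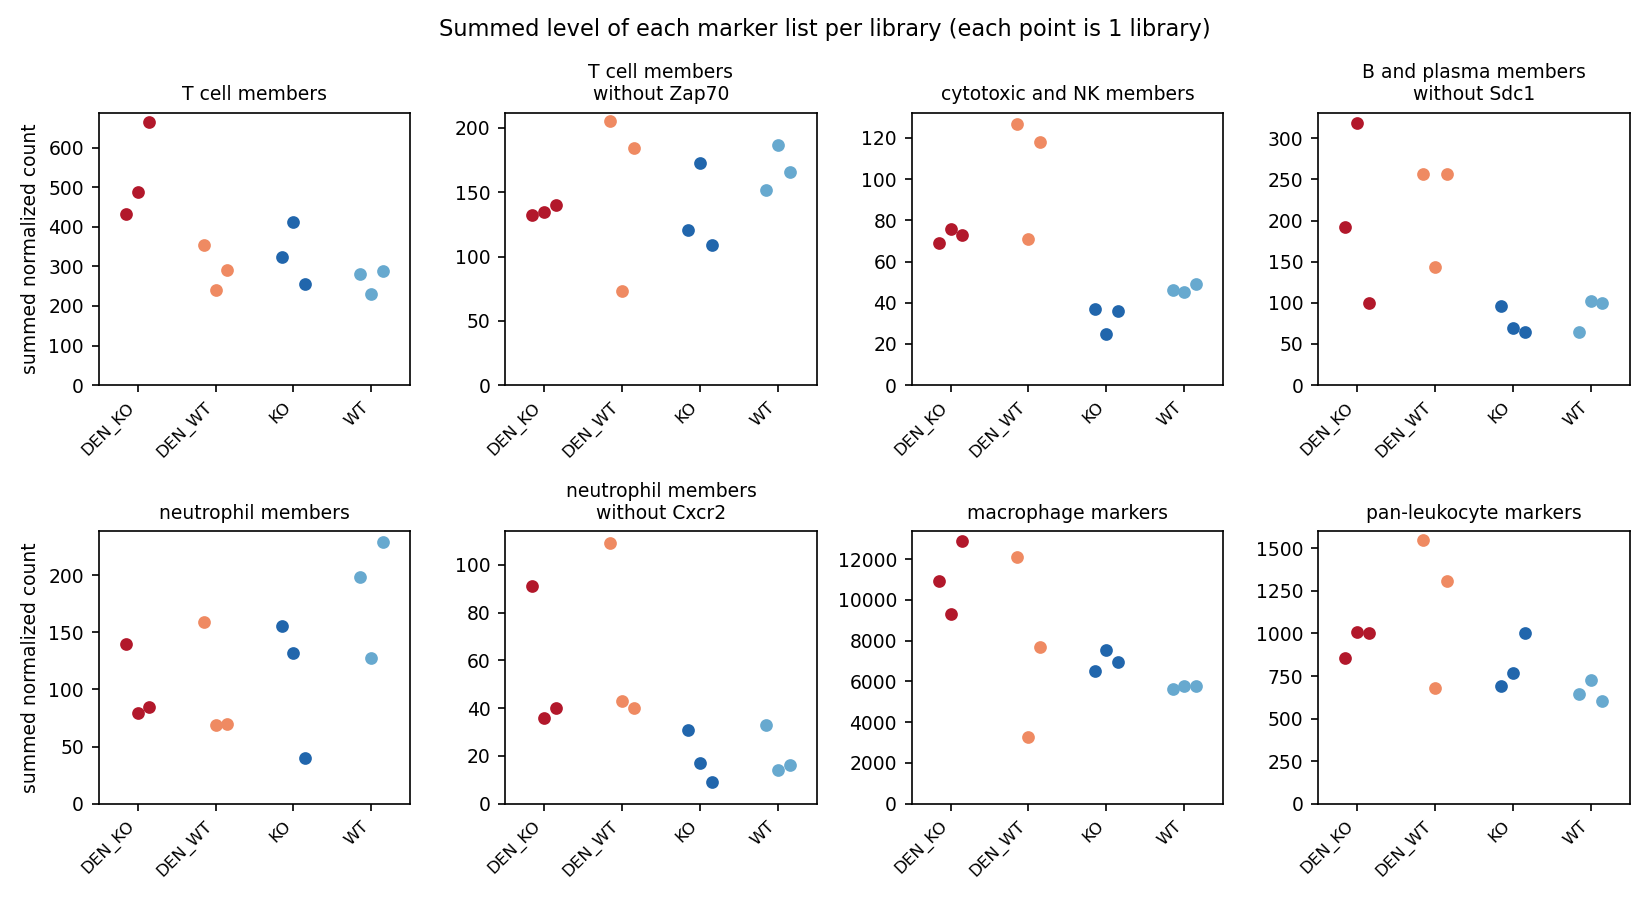
Summed normalized read counts of marker lists in each library, by group (DEN_KO, DEN_WT, KO, WT); each point is 1 library and each panel has its own axis from 0. The T cell sum is highest in DEN_KO (432 to 666) with Zap70 and overlaps between DEN_KO and DEN_WT without it, and the low DEN_WT point of the macrophage panel is replicate 2.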

How the data were processed

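RNA libraries were Ion Proton libraries of bead-isolated mRNA digested with RNase III, per the labels' protocols. The submitters' processing notes name cutadapt, TopHat2 2.0.9, Cufflinks, Bowtie2, DESeq and build mm9; no role is stated for them, and for strand use and peak calling the sources used here give no setting. The deposited score per gene and library is a whole number, and the labels call the table normalized counts. The values look like normalized read counts rounded to whole numbers, which the labels do not state, so no count model was used. Median-ratio factors of the table are 0.999 to 1. The authors' region lists carry a score of 0 throughout, so positions alone were used.

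Genes at 10 or more in at least 3 of 12 libraries (16471 of 37583) were fitted as log2(value + 1) with limma 3.58.1 (R 4.3.3), 1 fit of 4 groups with a trend and 8 residual degrees of freedom, checked on simulated data. The simulation placed changes only in genes with a higher mean level than Cd79b, Prf1, S100a9, Ltf and Pou2af1. How well changes in such low genes are recovered was therefore not checked. Other pseudocounts, filters, scalings, fits and single libraries left out were tried as alternatives. An exact test of 3 against 3 libraries cannot go below 0.10. The labels number a mouse for each library. Depth as reads is unknown, so no counting interval is given.

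The members and lists were chosen with earlier results of these data known. Values in every library are given for each member past the threshold and for the 2 members of highest mean in each list, and for up to 4 genes of smallest adjusted p from each further list; other names were chosen after values were seen. Gene starts came from the deposited table, promoters and symbols from RefSeq tables, where 36 of 36 gene identifiers matched. Polymerase II and input libraries were not analysed here.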

Additional observations from a re-analysis of the deposited data

Results flagged for a closer look

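For 5 of the genes described with values in every library, the effect of DEN differed between knockout and wild-type mice by the test of the difference itself (limma, adjusted over all tested genes, of which 16.6% passed). Cd79b had a DEN effect larger in KO than in WT by 4.003 on the log2 scale (adjusted p = 0.0112). Tcf7 had one smaller in KO by -1.39 (adjusted p = 0.0152). For Ltb the difference was -2.16 (adjusted p = 0.0407), and 11 of 21 other settings did not call it, with adjusted p up to 0.0873. For Tnfsf13 it was -3.08 (adjusted p = 0.0047) and for Cxcl16 -1.43 (adjusted p = 0.0075). Cxcl13, of the same chemokine list as these, passed as well, at -2.38 (adjusted p = 0.0494). Cd79b is the single one of the 5 that belongs to the 36 marker genes, and the single one in which the DEN effect was larger in KO.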

How the results depend on the processing

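The number of marker genes called in DEN_KO against DEN_WT livers, 2, became 4 with 5 added to each value, 4 after quantile normalization, 4 without the trend, and 1 when only genes at 20 or more in 3 libraries were tested, where fewer genes enter. The genes added were Prf1, Ltf and Sdc1. For the difference between the DEN effects the count, 1, became 2 after quantile normalization and 0 under the filter of 20. Cd79b did not pass that filter and was not tested under it. Leaving out single libraries gave 3 to 7 calls in DEN_WT against WT (3 without DEN_WT replicate 1, DEN_WT replicate 3 or WT replicate 3), 3 to 4 in DEN_KO against KO, 2 to 3 in DEN_KO against DEN_WT, 0 to 1 in KO against WT (1, Cd8b1, without KO replicate 3) and 1 to 3 for the difference between the DEN effects (3 without KO replicate 3). Without DEN_WT replicate 2 there were 7 calls in DEN_WT against WT, 5 of them shared with the full fit, and 2 in DEN_KO against DEN_WT, 1 of them shared. Scaling to equal sums moved the median of all genes by 0.213 in DEN_WT against WT and 0.118 in KO against WT on the log2 scale; the counts of marker genes called became 7 and 0, and among all genes 3511 higher and 1213 lower in DEN_WT against WT, where the unscaled values gave 2659 and 2223. With equal sums the split was 1495 and 642 in DEN_KO against KO (1468 and 992 unscaled), 110 and 59 in KO against WT (90 and 101 unscaled) and 1004 and 1629 for the difference between the DEN effects (1438 and 1289 unscaled). Within 5 kb of a start the genes with a region numbered 2 in each of the 3 lists, Lck joining for H3K4me3, through a region at the start of the neighbouring gene Fam167b, and Prf1 for Smyd3. The background counts over all genes moved as well. In KO against WT livers 191 genes became 104 without the trend, 115 with only these groups in the fit, and 62, 63, 555 and 64 without KO replicate 1, KO replicate 2, KO replicate 3 and WT replicate 2. In DEN_KO against KO livers 2460 became 1119, 1316, 1322 and 1604 without DEN_KO replicate 2, DEN_KO replicate 3, KO replicate 1 and KO replicate 2. For the difference between the DEN effects 2727 became 1751 without DEN_KO replicate 3. For named genes no direction was reversed: 784 repeats kept the call and 107 fell short of the threshold. The cause of these changes was not tested. Low values limit what can be seen, with 13 of 36 genes unread.

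No pairing of animals by replicate number was seen in these values, though with 3 libraries per group a weak pairing could be missed. Deviations of libraries with the same number correlated at -0.0996 to 0.12 (18 pairs), and those with other numbers at -0.152 to 0.132 (36 pairs). A total of 0 libraries correlated best with their own number in every other group. With a replicate block the calls were 5 in DEN_WT against WT, 3 in DEN_KO against KO, 4 in DEN_KO against DEN_WT, 0 in KO against WT and 2 for the difference between the DEN effects.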

Other observations

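Cebpe, a transcription factor of granule formation in the further neutrophil list, named after its values were seen, read 216, 0 and 246 in DEN_KO, 155, 37 and 67 in DEN_WT, 288, 0 and 2 in KO, and 127, 1 and 247 in WT livers. It read 0 to 2 in 4 libraries and 37 to 288 in the others; libraries of both kinds were present in DEN_KO, KO and WT livers.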
